A study of Homo sapiens with 9 samples.

Results

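The 54 genes described here serve G2 and mitosis: cyclins and CDK1, mitotic kinases, the chromosomal passenger complex, the spindle checkpoint, kinetochores, kinesins, spindle proteins and the machinery of cytokinesis. They were chosen by name, and 54 of 54 were found among the 58219 genes of the files and passed the low-count filter that kept 15233 genes for testing. RNA was sequenced from MDA-MB-231, an established human breast cancer line without hormone receptors, in a study of APT1 in the partitioning of Notch and Wnt signalling at cell division. APT1, the product of LYPLA1, is an enzyme that strips palmitate off acylated proteins. The shAPT1 cells carried a lentiviral short hairpin RNA against APT1, selected with puromycin for 72 hours. The APT1wt cells carried a lentivirus that expressed wild-type APT1. Control cells carried a lentivirus with a scrambled RNA, so all 3 groups were transduced, and a control with an empty overexpression vector was not analysed here. Each group had 3 libraries, grown in DMEM with 10% serum. The labels do not say whether a group was 1 clone or a pool, nor that its libraries came from separate cultures, so the spread behind the p-values may be technical only.

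A cell enters mitosis when cyclin B bound to CDK1 is switched on by CDC25 phosphatases, with help from polo-like and Aurora kinases. The spindle checkpoint then holds the anaphase-promoting complex, APC/C, in check until every kinetochore is attached to microtubules, after which CDC20 lets APC/C mark securin and cyclin B for destruction. Most genes of this programme are transcribed late in the cycle through the MuvB complex with MYBL2 and FOXM1, and are held down in resting cells by DREAM. A pair of promoter elements is known for this control, the cell cycle genes homology region (CHR) and the CCAAT box bound by NF-Y. In a bulk sample, a change in the share of cells in G2 or mitosis and a change in RNA per such cell cannot be told apart.

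Promoters are shown first because the genes share these elements. RefSeq windows of 300 bases, 250 before and 50 after an annotated start (GRCh38.p14), were at hand for 46 of the 54 genes. A CHR element, searched as TTTGAA or TTCGAA on either strand, was found in 35 of the 46 (76.1%), against 19.5% of 27305 genes with a window. A CCAAT box, searched as CCAAT on either strand, was found in 38 of the 46 (82.6%), against 39.7% of all. Both in 1 window occurred for 65.2% of the 46, against 7.85% of all, and neither for 8.7%, against 49.8%. Positions were counted per window, so a match shared by overlapping windows of a gene counted more than once. CHR matches had a median first base at -23 from the start, and 37 of 53 lay within 50 bases of it. CCAAT matches had a median at -73, and 66 of 85 lay between -150 and -25. A CHR match overlapped a CCAAT match in 1 of the 60 windows of these genes. A match is a description of these letters and not a measured site. Printed below, 5′ to 3′ on the gene's strand with matches in capitals, are 6 windows of genes chosen for their values in the comparisons that follow. PLK1 (chr16:23678639-23678938, plus strand) has a CHR match at -29 and a CCAAT match at -73. BUB1 (chr2:110678014-110678313, minus strand) has TTCGAA at 2 and CCAAT matches at -79 and -54. DLGAP5 (chr14:55191536-55191835, minus strand) has 3 CHR and 2 CCAAT matches. CCNB1 (chr5:69166900-69167199, plus strand) and KIF20A (chr5:138178862-138179161, plus strand) have 2 CCAAT matches each and no CHR match in this window. CKAP2 (chr13:52455738-52456037, plus strand) has neither.
PLK1: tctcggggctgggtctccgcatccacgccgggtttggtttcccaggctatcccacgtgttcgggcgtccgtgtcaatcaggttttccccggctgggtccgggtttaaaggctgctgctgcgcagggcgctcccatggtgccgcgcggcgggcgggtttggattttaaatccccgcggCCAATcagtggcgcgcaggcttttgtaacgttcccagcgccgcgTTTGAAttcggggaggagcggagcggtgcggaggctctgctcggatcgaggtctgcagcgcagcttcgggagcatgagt
BUB1: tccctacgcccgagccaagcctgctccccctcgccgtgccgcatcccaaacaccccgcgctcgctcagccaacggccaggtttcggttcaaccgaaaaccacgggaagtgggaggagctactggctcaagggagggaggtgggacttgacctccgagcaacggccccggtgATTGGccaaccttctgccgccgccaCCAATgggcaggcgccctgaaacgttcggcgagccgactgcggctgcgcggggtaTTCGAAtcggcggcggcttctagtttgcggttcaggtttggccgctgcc
DLGAP5: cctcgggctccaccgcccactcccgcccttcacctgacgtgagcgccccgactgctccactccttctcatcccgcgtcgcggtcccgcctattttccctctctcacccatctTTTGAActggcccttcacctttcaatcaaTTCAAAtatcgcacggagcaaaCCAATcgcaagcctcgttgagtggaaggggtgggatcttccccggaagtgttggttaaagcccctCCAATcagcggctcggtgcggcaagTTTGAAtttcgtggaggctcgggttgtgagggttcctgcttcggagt
CCNB1: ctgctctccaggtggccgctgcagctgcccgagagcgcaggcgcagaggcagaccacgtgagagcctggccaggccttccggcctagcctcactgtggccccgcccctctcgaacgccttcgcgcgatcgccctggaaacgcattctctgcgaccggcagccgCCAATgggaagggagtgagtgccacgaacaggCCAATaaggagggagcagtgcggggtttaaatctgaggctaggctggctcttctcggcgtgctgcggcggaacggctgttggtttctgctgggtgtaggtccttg
KIF20A: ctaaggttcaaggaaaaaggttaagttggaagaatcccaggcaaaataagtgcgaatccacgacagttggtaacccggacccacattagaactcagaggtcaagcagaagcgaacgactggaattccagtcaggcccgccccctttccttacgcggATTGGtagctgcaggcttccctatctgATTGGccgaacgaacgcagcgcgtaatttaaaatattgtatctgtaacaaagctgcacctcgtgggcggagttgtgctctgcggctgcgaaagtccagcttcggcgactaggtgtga
CKAP2: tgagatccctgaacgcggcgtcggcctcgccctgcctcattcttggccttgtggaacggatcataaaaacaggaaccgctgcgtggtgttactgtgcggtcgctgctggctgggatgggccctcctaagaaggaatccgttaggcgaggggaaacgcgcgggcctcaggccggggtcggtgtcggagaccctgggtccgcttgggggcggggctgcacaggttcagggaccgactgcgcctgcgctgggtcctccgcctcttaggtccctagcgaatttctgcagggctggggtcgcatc

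**Figure D1:**
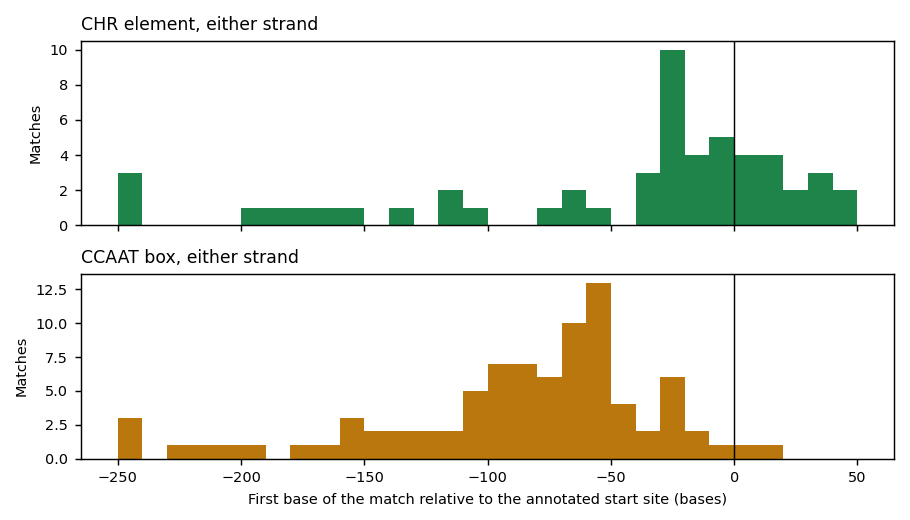
Position of CHR and CCAAT matches in the promoter windows of the G2 and mitosis genes; the horizontal axis gives the first base of each match relative to the annotated start in bases, the vertical axis the number of matches in 10-base bins. CHR matches gather around the start (median -23) and CCAAT matches upstream of it (median -73). A match shared by overlapping windows of a gene is counted in each.

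LYPLA1 followed the labels. It stood at 38.2, 30.5 and 36.7 TPM in shAPT1, 169, 171 and 169.9 TPM in APT1wt and 87.1, 92.7 and 80.5 TPM in control, where TPM is a length-corrected share of a library. No library of a group overlapped another group. On reads summed per gene it changed by -1.29 ± 0.07 (adjusted p = 2.0e-08) in shAPT1 and 0.60 ± 0.06 (adjusted p = 1.1e-05) in APT1wt, both against control. These and later fold changes are log2, given ± SE, from edgeR's quasi-likelihood test on estimated reads unless another setting is named. Adjusted p is Benjamini-Hochberg over 15233 genes, and "rose", "fell" or "called" means an adjusted p below 0.05. Values corrected for neighbouring genes, or for length and GC content, come instead from limma, a linear-model test, on corrected log2 reads. They are given without SE. Depth was 12381931 to 18667383 estimated reads. VIM and CD44, defining markers of this mesenchymal line, summed to 2911 to 3037 TPM in shAPT1, 2533 to 2712 TPM in APT1wt and 2866 to 3291 TPM in control. Of 4 genes listed as absent or low in the line, the hormone receptors ESR1 and PGR were below 1 TPM in every library. The other two, ERBB2 and EPCAM, were not, and the 4 summed to between 37.2 and 46.1 TPM over all libraries. The 5 leukocyte markers summed to at most 1.32 TPM in any library. The 5 fibroblast markers summed to 8.37 to 11.3 TPM in shAPT1, 6.19 to 8.33 TPM in APT1wt and 5.5 to 6.2 TPM in control, and the 4 endothelial markers to 2.04 to 2.58 TPM, 1.20 to 1.79 TPM and 2.25 to 2.83 TPM in the same order. Their part in the results was not tested.

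The genes were abundant in all groups. Their median control level was 94.85 TPM, against 14.35 TPM for all tested genes. UBE2C, the ubiquitin-conjugating enzyme that serves APC/C, was highest at 448 ± 28.3 TPM in control, and HMMR, a spindle and hyaluronan-binding protein, lowest at 14.9 ± 0.719 TPM (SD, n = 3). Together the genes took 1.04 to 1.10% of reads in shAPT1, 1.10 to 1.16% in APT1wt and 1.00 to 1.09% in control. Libraries within a group did not stand equal: control replicate 1 was the lowest of all 9 libraries for 15 of the 54 genes on scaled reads, and APT1wt replicate 3 was the highest for 18. The median of the genes in a library deviated from its group mean by at most 0.06 (log2, shAPT1 replicate 1, with 38 of the 54 above that mean), where the median of all genes deviated by -0.003. In APT1wt replicate 3, 45 of the 54 were above their group mean, and in control replicate 1, 12 were. The genes thus moved together between libraries of a group, and counts of genes below are not counts of independent results.

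**Figure D2:**
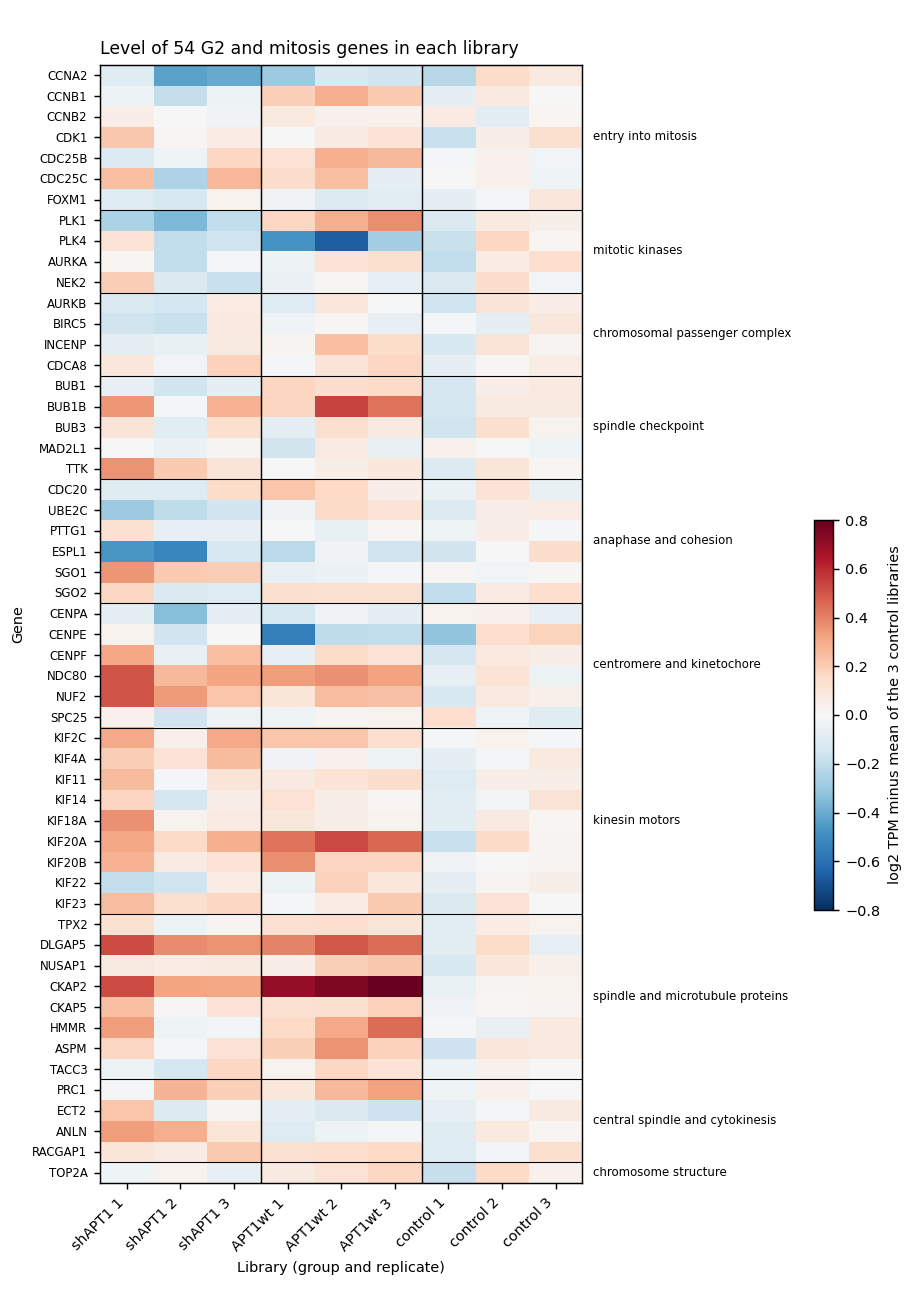
Level of each of the 54 genes (rows, grouped by role) in each library (columns, in the order shAPT1, APT1wt, control); colour gives log2 TPM minus the mean of the 3 control libraries. CKAP2, KIF20A and DLGAP5 are red across the APT1wt columns, PLK1 is blue in shAPT1 and red in APT1wt, and control replicate 1 is pale blue for many genes.

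In shAPT1 against control, the genes changed little and in both directions. Of the 54, 5 rose (9.26%), where 12.8% of all tested genes rose, and 7 fell (13.0%), where 11.6% of all fell (24.4% called either way). Those that rose were DLGAP5, CKAP2, NDC80, NUF2 and KIF20A. Those that fell were PLK1, CCNA2, ESPL1, UBE2C, CENPA, BUB1 and CCNB1. The median log2 fold change was -0.03, against -0.004 for all genes, and single genes spanned -0.48 to 0.35. Every shAPT1 library was above every control library on scaled reads for 9 genes and below for 6, where 19.5% and 18.4% of all genes were so. Both shares called are near the background of all genes. Counts in other settings are given, here and below, without the share of all genes called in them. Correcting for the length and GC content of genes put the count that fell at 16. It was 11 without shAPT1 replicate 1, 3 without shAPT1 replicate 2 or control replicate 2 and 4 without control replicate 3, and the count that rose was 3 without control replicate 1.

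In APT1wt against control, the genes were mostly higher. Of the 54, 14 rose (25.9%), where 11.8% of all genes rose, and 2 fell (3.70%), where 11.6% of all fell (23.4% called either way). CKAP2, KIF20A, DLGAP5, NDC80, BUB1B, PRC1, CDC25B, HMMR, CCNB1, PLK1, ASPM, KIF20B, KIF2C and BUB1 rose, and PLK4 and CENPE fell. The median log2 fold change was 0.10, 42 of 54 values were above 0 (77.8%, against 49.5% of all genes), and the range was -0.37 to 0.78. On scaled reads, every APT1wt library was above every control library for 24 genes and below for 3, where 22.2% and 22.0% of all genes were so. The count that rose was 9 with library totals as the only scaling, 7 without control replicate 1, APT1wt replicate 2 or APT1wt replicate 3, and 9 without control replicate 3. The count that fell was 1 without APT1wt replicate 1 or 2 or control replicate 2 or 3.

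Set directly against APT1wt, with libraries already used above, shAPT1 was mostly lower. Of the 54, 1 gene rose (SGO1, 1.85%), where 12.7% of all genes rose, and 16 fell (29.6%), where 12.4% of all fell (25.1% called either way). Those that fell were PLK1, CKAP2, CCNB1, ESPL1, UBE2C, BUB1, INCENP, KIF22, BUB1B, CDC25B, HMMR, KIF20A, ASPM, TACC3, CDC20 and TPX2. The median log2 fold change was -0.14, and 9 of 54 values were above 0 (16.7%, against 50.2% of all genes). Every shAPT1 library was below every APT1wt library for 28 genes and above for 3, where 19.2% and 20% of all genes were so. The count that fell was 10 with library totals alone and 36 after correcting for length and GC content, and 10 without shAPT1 replicate 2 or APT1wt replicate 2.

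**Figure D3:**
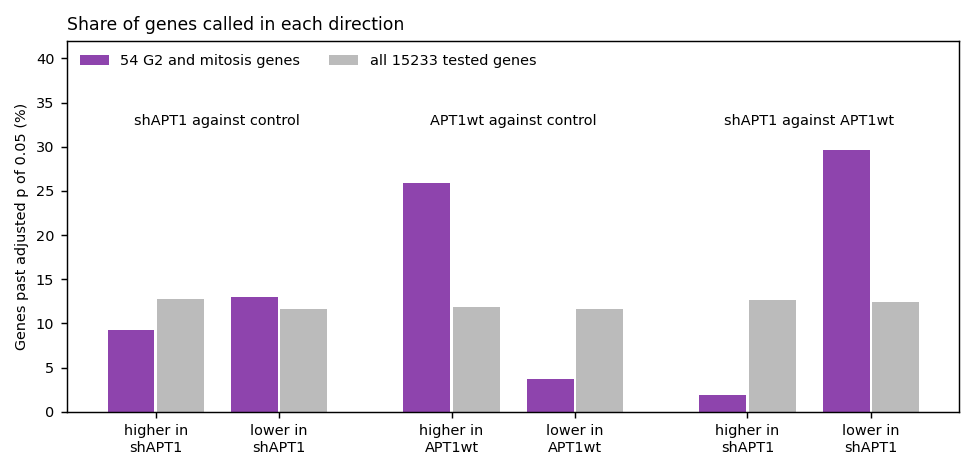
Percent of the 54 G2 and mitosis genes (purple) and of all 15233 tested genes (grey) past an adjusted p of 0.05, for each direction of each comparison. The purple bar is taller than the grey one for genes higher in APT1wt than control (25.9% against 11.8%) and for genes lower in shAPT1 than APT1wt (29.6% against 12.4%).

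Changes were small. No gene of the 54 reached an absolute log2 fold change of 1 in any comparison, a size that 4.60%, 4.81% and 4.47% of all genes reached in shAPT1 and in APT1wt against control and in shAPT1 against APT1wt. At 0.5 the counts were 0, 1 (CKAP2) and 1 (PLK1), where 15.8%, 16.7% and 16.0% of all genes passed. By order of the group means, 21 genes ran shAPT1, control, APT1wt from low to high, an order that 16.9% of all genes had, and 18 ran control, shAPT1, APT1wt, which 16.3% of all had. The other 15 were spread over the remaining orders, and, by the counts above, most differences between groups did not pass the test.

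**Figure D4:**
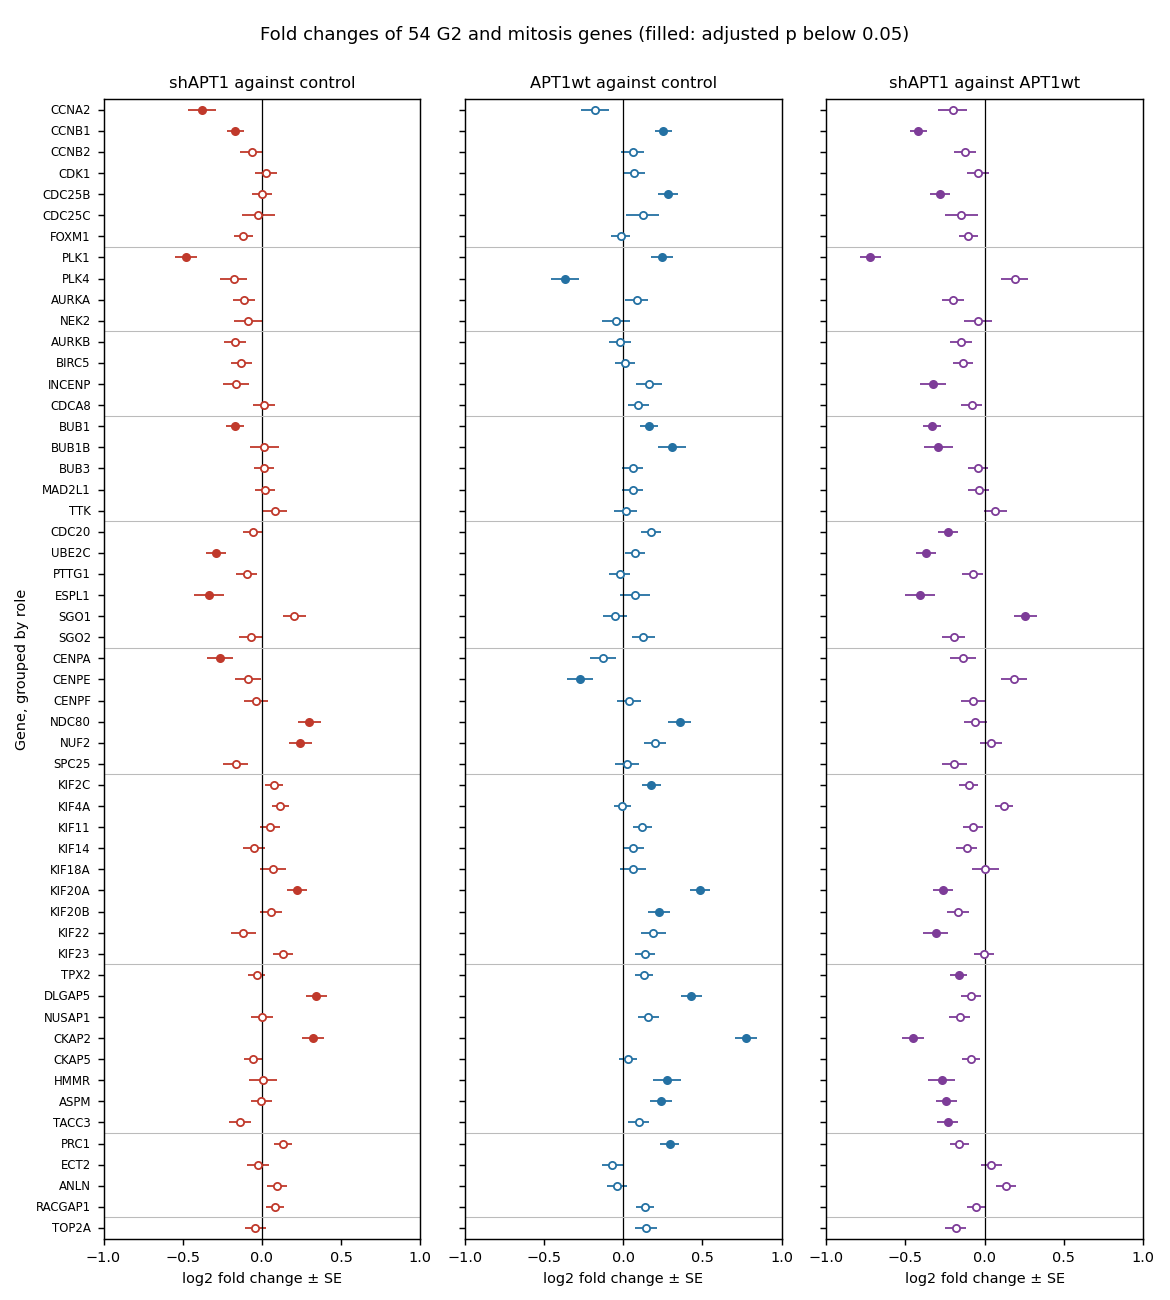
Log2 fold change (horizontal axis) with its SE for each gene, grouped by role, with a panel for shAPT1 and for APT1wt against control and another for shAPT1 against APT1wt; filled points have an adjusted p below 0.05. In the middle panel 42 of 54 points lie right of 0, and in the right panel 9 of 54 do.

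Among the 7 genes of entry into mitosis, 0 rose and 2 fell (28.6%) in shAPT1, and 2 rose (28.6%) and 0 fell in APT1wt, both against control. For this and later counts by role, 12.8% of all genes rose and 11.6% fell in shAPT1. In APT1wt 11.8% of all rose and 11.6% fell. Roles hold few genes, and their counts were not tested against these shares. CCNB1 (ENSG00000134057.14; chromosome 5, 69167010 to 69178245, plus strand) encodes cyclin B1, the activating partner of CDK1. CCNB1 stood at 324, 292 and 325 TPM in shAPT1, 381, 409 and 387 TPM in APT1wt and 316, 352 and 335 TPM in control. In TPM the APT1wt libraries lay above the others, while shAPT1 and control overlapped. On scaled reads, given in CPM as in the test, CCNB1 had 274, 265 and 269 CPM in shAPT1, 351, 368 and 363 CPM in APT1wt and 298, 309.9 and 299 CPM in control, with every shAPT1 library below and every APT1wt library above the controls. Its log2 fold change was -0.17 ± 0.05 (adjusted p = 0.036) in shAPT1 and 0.25 ± 0.05 (adjusted p = 0.0036) in APT1wt against control, and -0.42 ± 0.05 (adjusted p = 7.1e-05) in shAPT1 against APT1wt. The call in shAPT1 against control was lost in 12 of 23 other settings, among them without shAPT1 replicate 2 or 3, APT1wt replicate 2 or 3, or control replicate 1, 2 or 3. The call in APT1wt against control was lost in 1 of 23 other settings (the neighbour correction), and the one in shAPT1 against APT1wt was kept in all 23. CCNA2 (ENSG00000145386.9; chromosome 4, 121816444 to 121823933, minus strand) encodes cyclin A2, which drives S phase and early mitosis. CCNA2 measured 108, 85.2 and 87.1 TPM in shAPT1, 93.9, 106 and 104 TPM in APT1wt and 98.5, 127 and 121 TPM in control. Replicates 2 and 3 of shAPT1 were the lowest of all 9 libraries, and replicate 1 overlapped the controls in TPM. On summed reads CCNA2 fell by 0.38 on the log2 scale in shAPT1 (SE 0.09, adjusted p = 0.0066), a call kept in all 23 other settings, and its value in APT1wt was -0.18 ± 0.09 (adjusted p = 0.18).

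CDC25B (ENSG00000101224.17; chromosome 20, 3786772 to 3806121, plus strand), a phosphatase that starts CDK1 activation, had 85.9, 90.1 and 104 TPM in shAPT1, 100, 113 and 111 TPM in APT1wt and 91.6, 94.6 and 91.2 TPM in control. Every APT1wt library was above every control library, and shAPT1 overlapped both. It rose in APT1wt by 0.28 ± 0.06 (adjusted p = 0.0055) and was lower in shAPT1 than in APT1wt, at -0.28 ± 0.06 (adjusted p = 0.0050), while shAPT1 against control gave an adjusted p of 0.995. The APT1wt call was lost in 2 of 23 other settings (the transcript length offset, the deposited scaled table). CDK1 (ENSG00000170312.15; chromosome 10, 60778331 to 60794852, plus strand), the kinase of mitotic entry, stood at 187, 163 and 168 TPM in shAPT1, 160.5, 168 and 174 TPM in APT1wt and 142, 167 and 176 TPM in control. All groups overlapped, and CDK1 passed no test, at 0.02 ± 0.07 (adjusted p = 0.84) in shAPT1 and 0.07 ± 0.07 (adjusted p = 0.54) in APT1wt. FOXM1 (ENSG00000111206.12; chromosome 12, 2857681 to 2877155, minus strand), a transcription factor of late cell cycle genes, had 124, 123 and 136 TPM in shAPT1, 131, 124 and 126 TPM in APT1wt and 127, 133 and 142 TPM in control. Its groups overlapped, with -0.12 ± 0.06 (adjusted p = 0.17) in shAPT1 and -0.02 ± 0.06 (adjusted p = 0.88) in APT1wt. CCNB2, which encodes cyclin B2, and CDC25C, another phosphatase of CDK1, passed no test.

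Of the 4 mitotic kinases, PLK1 gave the largest difference between shAPT1 and APT1wt of all 54 genes on reads. PLK1 (ENSG00000166851.14; chromosome 16, 23677656 to 23690367, plus strand) encodes polo-like kinase 1, which acts in mitotic entry, centrosome maturation and cytokinesis. PLK1 stood at 104, 96.5 and 108 TPM in shAPT1, 139, 152 and 160.1 TPM in APT1wt and 114, 130.2 and 128 TPM in control. All 3 shAPT1 libraries were below and all 3 APT1wt libraries above every control library, in TPM and on scaled reads. On scaled reads this order of libraries was seen in PLK1, CCNB1 and BUB1 of the 54, where 1.68% of all genes had it and 1.79% had its mirror image, which no gene of the 54 had. Its log2 fold change was -0.48 ± 0.07 (adjusted p = 2.0e-04) in shAPT1 and 0.24 ± 0.07 (adjusted p = 0.019) in APT1wt against control. In shAPT1 against APT1wt it was -0.72 ± 0.07 (adjusted p = 5.7e-06). PLK1 averaged 102.8 TPM in shAPT1, 150.4 in APT1wt and 124.1 in control. Its mean effective length was 1784, 1905 and 1967 bases in the same order, and TPM and read counts gave different sizes of change. The calls in shAPT1 against control and in the direct comparison were kept in all 23 other settings, and the one in APT1wt against control was lost in 5 of 23 other settings (the neighbour correction, and without APT1wt replicate 2 or 3 or control replicate 1 or 3). PLK4 (ENSG00000142731.10; chromosome 4, 127880861 to 127899195, plus strand) encodes the kinase that starts centriole duplication, and measured 63.3, 51.2 and 52.7 TPM in shAPT1, 42.1, 37.2 and 48.7 TPM in APT1wt and 51.8, 65.8 and 59.4 TPM in control. Every APT1wt library was below the other 6, and shAPT1 overlapped control. PLK4 fell in APT1wt by 0.37 on the log2 scale (SE 0.09, adjusted p = 0.0067), a call lost in 1 of 23 other settings (the neighbour correction), and its value in shAPT1 was -0.18 ± 0.09 (adjusted p = 0.15). AURKA (ENSG00000087586.17; chromosome 20, 56369389 to 56392337, minus strand), the Aurora kinase of centrosomes and spindle poles, stood at 186, 161 and 183 TPM in shAPT1, 179.5, 199.5 and 202 TPM in APT1wt and 161, 193 and 203 TPM in control. Its groups overlapped in TPM, and it passed no test, the nearest being shAPT1 against APT1wt at -0.20 ± 0.07 (adjusted p = 0.054). NEK2, a centrosomal kinase, passed none either.

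The chromosomal passenger complex corrects wrong kinetochore attachments, with AURKB as its kinase and INCENP, BIRC5 and CDCA8 as its other subunits. None of the 4 genes was called against control. AURKB (ENSG00000178999.12; chromosome 17, 8204733 to 8210600, minus strand) had 169, 166 and 191 TPM in shAPT1, 170.5, 194 and 183 TPM in APT1wt and 164, 196 and 190.1 TPM in control. The groups overlapped, with -0.17 ± 0.07 (adjusted p = 0.097) in shAPT1 and -0.02 ± 0.07 (adjusted p = 0.86) in APT1wt. BIRC5 (ENSG00000089685.14; chromosome 17, 78214186 to 78225636, plus strand), survivin, measured 99.1, 98 and 117 TPM in shAPT1, 108, 112 and 106 TPM in APT1wt and 109.8, 105 and 118 TPM in control. It too overlapped in TPM, at -0.13 ± 0.06 (adjusted p = 0.16) in shAPT1 and 0.01 ± 0.06 (adjusted p = 0.93) in APT1wt. INCENP was lower in shAPT1 than in APT1wt, at -0.33 ± 0.08 (adjusted p = 0.011), a call kept in all 23 other settings, with -0.16 and 0.16 against control, neither called. CDCA8 passed no test.

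Of the 5 spindle checkpoint genes, the kinases BUB1 and BUB1B differed between groups, while BUB3, MAD2L1 and TTK passed no test in any comparison. BUB1 (ENSG00000169679.14; chromosome 2, 110637698 to 110678114, minus strand) encodes the kinase that recruits checkpoint proteins to kinetochores. It stood at 141, 133 and 139.9 TPM in shAPT1, 166, 163 and 164 TPM in APT1wt and 134, 153 and 156 TPM in control. In TPM only APT1wt lay apart, above all 6 other libraries. On scaled reads BUB1 had 289.8, 285 and 279 CPM in shAPT1, 366, 348 and 360.5 CPM in APT1wt and 308, 318 and 334 CPM in control, and there every shAPT1 library was below and every APT1wt library above the controls. BUB1 was at -0.17 ± 0.06 (adjusted p = 0.041) in shAPT1 and 0.16 ± 0.06 (adjusted p = 0.048) in APT1wt against control, and at -0.33 ± 0.06 (adjusted p = 6.8e-04) in shAPT1 against APT1wt, a call kept in all 23 other settings. The shAPT1 call was lost in 13 of 23 other settings, among them without shAPT1 replicate 2 or 3, APT1wt replicate 1, 2 or 3, or control replicate 2 or 3. The APT1wt call was lost in 13 of 23 other settings, among them without shAPT1 replicate 2, APT1wt replicate 1, 2 or 3, or control replicate 1, 2 or 3. BUB1B (ENSG00000156970.12; chromosome 15, 40161023 to 40221136, plus strand), or BUBR1, is part of the complex that inhibits APC/C. BUB1B measured 68.6, 53.2 and 65.2 TPM in shAPT1, 60.5, 78.2 and 72.9 TPM in APT1wt and 48.8, 56.7 and 56.5 TPM in control. APT1wt was above control in each library, and shAPT1 spanned from the control range into that of APT1wt. It rose in APT1wt by 0.31 ± 0.09 (adjusted p = 0.023) and was lower in shAPT1 than in APT1wt, at -0.29 ± 0.09 (adjusted p = 0.028). The APT1wt call was lost in 4 of 23 other settings (the neighbour correction, and without APT1wt replicate 2 or 3 or control replicate 1). The call in shAPT1 against APT1wt was lost in 7 of 23 other settings, among them without shAPT1 replicate 2 or 3 or APT1wt replicate 2 or 3.

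Of the 6 genes of anaphase, cohesion and APC/C partners, 2 fell in shAPT1 (33.3%, against 11.6% of all genes), and none was called in APT1wt, both against control. UBE2C (ENSG00000175063.16; chromosome 20, 45812576 to 45816957, plus strand) had 366, 389 and 402 TPM in shAPT1, 438, 497 and 482 TPM in APT1wt and 415, 463 and 466 TPM in control. Every shAPT1 library was below every other library. UBE2C fell in shAPT1, at -0.29 ± 0.06 (adjusted p = 0.0039), kept in all 23 other settings, and stood at 0.08 ± 0.06 (adjusted p = 0.43) in APT1wt. In shAPT1 against APT1wt it was -0.37 ± 0.06 (adjusted p = 7.6e-04). ESPL1 (ENSG00000135476.11; chromosome 12, 53268299 to 53293643, plus strand) encodes separase, the protease that cuts cohesin at anaphase. ESPL1 measured 15.8, 15.2 and 20.02 TPM in shAPT1, 18.8, 21.4 and 19.5 TPM in APT1wt and 19.7, 21.9 and 24.1 TPM in control. Replicates 1 and 2 of shAPT1 were the lowest of the 9 libraries, and replicate 3 overlapped APT1wt and control. On reads it was -0.33 ± 0.10 (adjusted p = 0.021) in shAPT1 against control and -0.41 ± 0.10 (adjusted p = 0.0063) in shAPT1 against APT1wt. The first call was lost in 4 of 23 other settings (protein-coding transcripts alone, and without shAPT1 replicate 2 or control replicate 2 or 3). The second was lost in 3 of 23 other settings. CDC20 (ENSG00000117399.13; chromosome 1, 43358955 to 43363203, plus strand), the activator of APC/C in mitosis, stood at 211, 210.4 and 251 TPM in shAPT1, 264, 252 and 235 TPM in APT1wt and 218, 244 and 218 TPM in control. The groups overlapped in TPM. CDC20 was lower in shAPT1 than in APT1wt, at -0.23 ± 0.06 (adjusted p = 0.016), with -0.06 ± 0.06 (adjusted p = 0.57) in shAPT1 and 0.17 ± 0.06 (adjusted p = 0.063) in APT1wt against control. The call was lost in 3 of 23 other settings (library totals alone, and without shAPT1 replicate 2 or APT1wt replicate 1).

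SGO1 (ENSG00000129810.14; chromosome 3, 20160593 to 20186292, minus strand) protects centromeric cohesin and was the 1 gene of the 54 called higher in shAPT1 than in APT1wt. SGO1 stood at 37.1, 33.6 and 33.3 TPM in shAPT1, 27.9, 28.1 and 28.9 TPM in APT1wt and 29.3, 28.7 and 29.2 TPM in control. Every shAPT1 library was above the other 6. Its log2 fold change was 0.26 ± 0.07 (adjusted p = 0.019) against APT1wt and 0.20 ± 0.07 (adjusted p = 0.056) against control, the second not past the threshold. The call was lost in 6 of 23 other settings, among them without shAPT1 replicate 2 or APT1wt replicate 2. SGO2, its relative, and PTTG1, which encodes securin, passed no test.

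Of the 6 centromere and kinetochore genes, 2 rose (33.3%) and 1 fell (16.7%) in shAPT1, where 12.8% and 11.6% of all genes did. In APT1wt 1 rose and 1 fell (16.7% each), where 11.8% and 11.6% of all did. The 2 that rose in shAPT1 belong to the NDC80 complex, which binds microtubules. NDC80 (ENSG00000080986.12; chromosome 18, 2571511 to 2616635, plus strand) had 89.5, 75.7 and 78.7 TPM in shAPT1, 79.8, 81.6 and 79.2 TPM in APT1wt and 60.4, 68.2 and 61.6 TPM in control. Every shAPT1 and every APT1wt library was above every control library. NDC80 rose by 0.30 ± 0.07 (adjusted p = 0.0079) in shAPT1 and by 0.36 ± 0.07 (adjusted p = 0.0027) in APT1wt, calls kept in all 23 other settings, and these comparisons share their control libraries. NUF2 (ENSG00000143228.12; chromosome 1, 163266576 to 163355764, plus strand), the partner of NDC80 in that complex, measured 96.4, 86.3 and 79.3 TPM in shAPT1, 72.9, 80.7 and 80.01 TPM in APT1wt and 62.6, 71.8 and 70.1 TPM in control. Here too both groups lay above control in every library. NUF2 rose by 0.24 ± 0.07 (adjusted p = 0.022) in shAPT1, and its value in APT1wt was 0.20 ± 0.07 (adjusted p = 0.056). The shAPT1 call was lost in 4 of 23 other settings (the length and GC correction, and without shAPT1 replicate 2 or control replicate 1 or 2). SPC25, another subunit of the complex, had -0.17 in shAPT1 and 0.02 in APT1wt and was not called.

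CENPA (ENSG00000115163.14; chromosome 2, 26764289 to 26801067, plus strand) encodes the histone H3 variant that marks centromeres. CENPA stood at 42.4, 35.4 and 42.7 TPM in shAPT1, 40.9, 43.9 and 42.6 TPM in APT1wt and 45.8, 45.9 and 42.8 TPM in control. Every shAPT1 library was below every control library in TPM, narrowly for replicates 1 and 3, and APT1wt overlapped both. It fell in shAPT1 by 0.26 on the log2 scale (SE 0.08, adjusted p = 0.029), and its value in APT1wt was -0.13 ± 0.08 (adjusted p = 0.29). The shAPT1 call was lost in 9 of 23 other settings, among them without shAPT1 replicate 2 or control replicate 1 or 2. CENPE (ENSG00000138778.11; chromosome 4, 103105806 to 103198409, minus strand), a kinesin of the kinetochore, measured 34.3, 30.2 and 33.6 TPM in shAPT1, 23, 29.2 and 29.3 TPM in APT1wt and 27.1, 36.8 and 38 TPM in control. APT1wt was below shAPT1 in every library and overlapped control through control replicate 1. CENPE fell in APT1wt by 0.27 on the log2 scale (SE 0.08, adjusted p = 0.028), and its value in shAPT1 was -0.09 ± 0.08 (adjusted p = 0.50). The APT1wt call was lost in 7 of 23 other settings, among them without APT1wt replicate 1 or 2 or control replicate 2 or 3. CENPF, a kinetochore protein of G2, passed no test.

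Of the 9 genes listed as kinesins, 1 rose in shAPT1 (11.1%, against 12.8% of all genes) and 3 rose in APT1wt (33.3%, against 11.8%). None was lower against control, where 11.6% of all genes fell in each comparison. CENPE, a kinesin listed above with the kinetochore genes, fell in APT1wt. KIF20A (ENSG00000112984.11; chromosome 5, 138178719 to 138187715, plus strand), which carries the passenger complex to the central spindle, had 92.6, 83 and 91 TPM in shAPT1, 101, 108 and 103 TPM in APT1wt and 66.1, 83 and 75.8 TPM in control. APT1wt libraries were the 3 highest, and shAPT1 overlapped control in TPM. KIF20A rose by 0.22 ± 0.06 (adjusted p = 0.021) in shAPT1 and by 0.48 ± 0.06 (adjusted p = 7.7e-05) in APT1wt, and was lower in shAPT1 than in APT1wt, at -0.26 ± 0.06 (adjusted p = 0.0070). The APT1wt call and the direct call were kept in all 23 other settings, while the shAPT1 call was lost in 4 of 23 other settings (the transcript length offset, the deposited scaled table, and without control replicate 1 or 3). KIF20B, a motor of cytokinesis, rose in APT1wt by 0.23 ± 0.07 (adjusted p = 0.026), and KIF2C, which depolymerises kinetochore microtubules, by 0.18 ± 0.06 (adjusted p = 0.041). The KIF20B call was lost in 8 of 23 other settings, among them without APT1wt replicate 1, 2 or 3 or control replicate 1, 2 or 3. The KIF2C call was lost in 12 of 23 other settings, among them without APT1wt replicate 1, 2 or 3 or control replicate 1, 2 or 3. KIF22, which pushes chromosome arms, was lower in shAPT1 than in APT1wt, at -0.31 ± 0.08 (adjusted p = 0.0094), a call lost in 4 of 23 other settings, among them without APT1wt replicate 2. KIF4A, KIF11, KIF14, KIF18A and KIF23 passed no test in any comparison.

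Spindle and microtubule proteins were called in 1 direction against control, 2 of 8 higher in shAPT1, 4 of 8 higher in APT1wt and none lower. CKAP2 (ENSG00000136108.14; chromosome 13, 52455429 to 52476628, plus strand), which stabilises spindle microtubules, had 176, 152 and 151 TPM in shAPT1, 199, 205 and 213 TPM in APT1wt and 118, 124 and 125 TPM in control. The 3 groups did not overlap, with APT1wt highest and control lowest. Its log2 fold change was 0.33 ± 0.07 (adjusted p = 0.0036) in shAPT1 and 0.78 ± 0.07 (adjusted p = 2.5e-06) in APT1wt, and -0.45 ± 0.07 (adjusted p = 3.0e-04) in shAPT1 against APT1wt. With a correction for neighbouring genes, described further on, CKAP2 was 0.04 (adjusted p = 0.58) in shAPT1, no longer called, and 0.20 (adjusted p = 0.015) in APT1wt. Its value in APT1wt was the largest of the 54 before that correction and not after it. DLGAP5 (ENSG00000126787.12; chromosome 14, 55148112 to 55191678, minus strand), or HURP, which bundles microtubules near chromosomes, measured 139.5, 126 and 124 TPM in shAPT1, 128, 137 and 132 TPM in APT1wt and 91.3, 108 and 92.8 TPM in control. Every shAPT1 and every APT1wt library was above every control library. DLGAP5 rose by 0.34 ± 0.06 (adjusted p = 0.0013) in shAPT1 and by 0.43 ± 0.06 (adjusted p = 2.3e-04) in APT1wt, both kept in all 23 other settings. HMMR (ENSG00000072571.19; chromosome 5, 163460203 to 163491945, plus strand) stood at 18.8, 14.6 and 14.7 TPM in shAPT1, 16.7, 18.4 and 20.3 TPM in APT1wt and 14.8, 14.3 and 15.7 TPM in control. APT1wt lay above control in each library, with shAPT1 across both. HMMR rose in APT1wt by 0.28 ± 0.09 (adjusted p = 0.035), and its value in shAPT1 was 0.01 ± 0.09 (adjusted p = 0.97). The APT1wt call was lost in 11 of 23 other settings, among them without shAPT1 replicate 2, APT1wt replicate 2 or 3, or control replicate 1, 2 or 3. ASPM, a spindle pole protein, rose in APT1wt by 0.24 ± 0.07 (adjusted p = 0.021), a call lost in 4 of 23 other settings (library totals alone, and without APT1wt replicate 2 or 3 or control replicate 1). TACC3 and TPX2, which bind Aurora A or its partners on the spindle, were lower in shAPT1 than in APT1wt, at -0.23 ± 0.07 (adjusted p = 0.022) and -0.16 ± 0.05 (adjusted p = 0.039). The TACC3 call was lost in 7 of 23 other settings, among them without shAPT1 replicate 2 or APT1wt replicate 2 or 3. The TPX2 call was lost in 14 of 23 other settings, among them without shAPT1 replicate 2 or 3, APT1wt replicate 1, 2 or 3, or control replicate 2 or 3. NUSAP1 and CKAP5 passed no test.

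**Figure D5:**
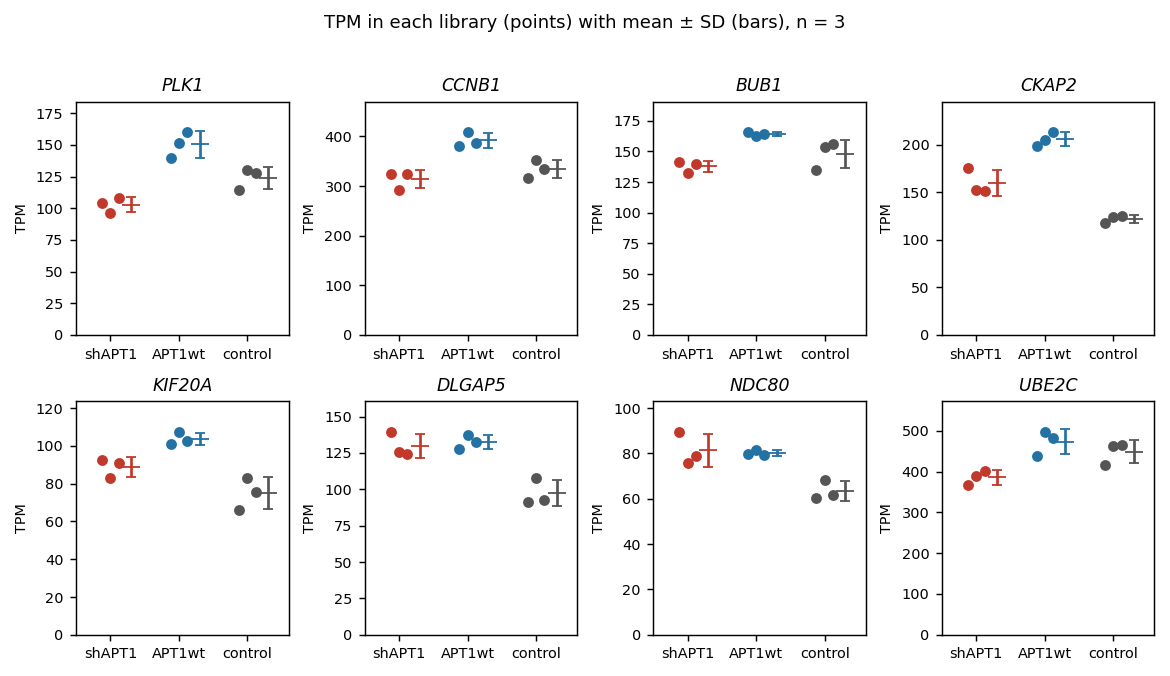
TPM of 8 G2 and mitosis genes in each library (points) with the group mean and SD (bars), for shAPT1, APT1wt and control, n = 3 each, on axes that start at 0. PLK1 is lowest in shAPT1 and highest in APT1wt, CKAP2 and KIF20A are highest in APT1wt, DLGAP5 and NDC80 are higher in both than in control, and UBE2C is lowest in shAPT1.

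In the central spindle, PRC1 (ENSG00000198901.13; chromosome 15, 90966038 to 90995629, minus strand), which crosslinks antiparallel microtubules, had 218, 265 and 251 TPM in shAPT1, 233, 263 and 274 TPM in APT1wt and 215, 225 and 219.7 TPM in control. APT1wt lay above control in every library, and shAPT1 overlapped both. PRC1 rose in APT1wt by 0.29 ± 0.06 (adjusted p = 0.0022), and its value in shAPT1 was 0.13 ± 0.06 (adjusted p = 0.11). The call was lost in 2 of 23 other settings (the transcript length offset, the deposited scaled table). RACGAP1 and ECT2, which position the contractile ring, and ANLN, which scaffolds it, passed no test. ANLN averaged 328 ± 28.3 TPM in shAPT1 and 278 ± 16.8 TPM in control (SD, n = 3 each), while its log2 fold change on reads was 0.09 ± 0.06 (adjusted p = 0.31). Its mean effective length was 3226 bases in shAPT1 and 3407 in control, and TPM and read counts gave different sizes there. TOP2A (ENSG00000131747.14; chromosome 17, 40388516 to 40417950, minus strand), the topoisomerase that untangles sister chromatids, stood at 279, 292 and 273 TPM in shAPT1, 301, 309.7 and 321 TPM in APT1wt and 252, 318 and 293 TPM in control. TPM of shAPT1 was below that of APT1wt in every library, and control overlapped both. TOP2A passed no test, at -0.04 ± 0.07 (adjusted p = 0.72) in shAPT1, 0.14 ± 0.07 (adjusted p = 0.16) in APT1wt and -0.18 ± 0.07 (adjusted p = 0.067) between them.

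The calls were also counted by promoter element. Of 35 genes with a CHR match, 10 rose and 1 fell in APT1wt, and of 11 without, 4 rose and 1 fell. Of all tested genes 11.8% rose and 11.6% fell there. The share that rose was not larger with a match than without, and median log2 fold changes were 0.124 and 0.0969. In shAPT1 against control, 3 rose and 4 fell of the 35, and 2 rose and 2 fell of the 11, where 12.8% and 11.6% of all genes did. Neither difference was tested.

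Some values moved with the genes' chromosomal surroundings. For each gene the median fold change of its nearest tested neighbours, up to 50 to each side, was taken. Most genes had 100 neighbours, and those near a chromosome end had fewer (61 for NDC80, 77 for TACC3 and 82 for PRC1). CKAP2, on chromosome 13, had neighbours with a median of 0.26 in shAPT1 and 0.59 in APT1wt against control. Removing the neighbours' deviation from each library, with limma as the test in place of edgeR, gave the corrected CKAP2 values stated above. Without the correction, limma gave the same counts of calls as edgeR in each direction of each comparison. PLK4, on chromosome 4, had neighbours at -0.29 in APT1wt and became -0.12 (adjusted p = 0.29). CENPE, on the same chromosome, had neighbours at -0.19 and became -0.07 (adjusted p = 0.62), so neither gene that fell in APT1wt was called after this correction. PLK1 kept -0.46 (adjusted p = 1.2e-04) in shAPT1, and in shAPT1 against APT1wt it was -0.63 (adjusted p = 1.2e-05), while in APT1wt against control it was 0.17 (adjusted p = 0.081). CCNB1 was -0.25 (adjusted p = 0.0055) in shAPT1, 0.15 (adjusted p = 0.088) in APT1wt and -0.40 (adjusted p = 2.2e-04) between them. BUB1 was -0.15 (adjusted p = 0.035), 0.02 (adjusted p = 0.82) and -0.17 (adjusted p = 0.019) in the same order. DLGAP5 became 0.15 (adjusted p = 0.038) in shAPT1. Of the 12 genes called in shAPT1, 2 lost the call (CENPA and CKAP2) and 2 others gained one (PRC1 and SPC25). Of the 16 called in APT1wt, 7 lost it (BUB1, BUB1B, CCNB1, CENPE, HMMR, PLK1 and PLK4). Another 6 gained one there (ANLN, CDC20, KIF4A, MAD2L1, NUF2 and TACC3), with MAD2L1 at 0.32 (adjusted p = 0.0012), KIF4A at 0.26 (adjusted p = 0.0043) and ANLN at 0.25 (adjusted p = 0.010). In shAPT1 against APT1wt, 3 of 17 lost it (HMMR, KIF22 and TPX2) and 8 gained one (CCNA2, CENPA, DLGAP5, KIF11, KIF14, KIF20B, KIF2C and MAD2L1), with CCNA2 at -0.49 (adjusted p = 5.2e-04). Neighbour medians reached 0.2 in size for 2 genes in shAPT1 (CKAP2 and DLGAP5) and for 6 in APT1wt (ANLN, CCNA2, CKAP2, KIF4A, MAD2L1 and PLK4), and what they reflect was not tested.

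The genes had 449 annotated transcripts in the files, of which 275 were named protein_coding and 94, in 35 genes, retained_intron. Protein-coding transcripts held 86.7 to 88.0% of the genes' TPM in shAPT1, 87.8 to 88.0% in APT1wt and 86.7 to 87.9% in control. HMMR, PLK1 and CDC25B had a transcript whose share of the gene moved by at least 10 percentage points against control. The HMMR transcript HMMR-002 held 27.9 ± 3.11% in shAPT1, 24.6 ± 1.71% in APT1wt and 1.66 ± 2.77% in control, while HMMR-001 held 47.3 ± 5.68%, 50.6 ± 6.13% and 73.1 ± 15.4% in the same order (SD, n = 3). PLK1-001 held 82.4 ± 6.30% of PLK1 TPM in shAPT1 and 94.6 ± 3.04% in control, and the 711-nt PLK1-007 held 13.9 ± 5.73% in shAPT1 and 2.70 ± 3.82% in control. CDC25B-201 held 13.4 ± 8.56% in shAPT1 and 0.00523 ± 0.00902% in control. These shares come from short-read assignment among overlapping transcripts, were not tested, and in the last case varied widely between libraries.

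Genes of the same programme outside the 54 were read from further lists. Against control, 12.8% of all genes rose and 11.6% fell in shAPT1, and 11.8% rose and 11.6% fell in APT1wt. Counts from the lists, several of them near these shares, were not tested against them. Of 17 APC/C subunits and coactivators, 2 rose (11.8%) and 4 fell (23.5%) in shAPT1, and 3 rose (17.6%) and 2 fell (11.8%) in APT1wt, against control. CDC16, an APC/C subunit, rose by 0.23 ± 0.06 (adjusted p = 0.019) in shAPT1 and 0.64 ± 0.06 (adjusted p = 7.2e-06) in APT1wt, and FBXO5, the APC/C inhibitor EMI1, by 0.48 ± 0.09 (adjusted p = 0.0016) in APT1wt. UBE2S, which elongates ubiquitin chains for APC/C, fell in both, at -0.45 ± 0.07 (adjusted p = 5.4e-04) in shAPT1 and -0.35 ± 0.07 (adjusted p = 0.0035) in APT1wt. Of 8 condensin subunits, which compact mitotic chromosomes, 1 rose in shAPT1 and 4 rose in APT1wt, with none lower. The APT1wt count of condensins was 0 without control replicate 2, APT1wt replicate 2 or APT1wt replicate 3, 1 without control replicate 1 and 2 without control replicate 3. Of 11 genes of cohesin and its regulators, 2 rose (18.2%) and 1 fell (9.09%) in each comparison with control. RAD21, the cohesin subunit that separase cuts, stood at -0.02 ± 0.06 (adjusted p = 0.86) in shAPT1 and 0.48 ± 0.06 (adjusted p = 4.9e-05) in APT1wt. PDS5B, a cohesin regulator, rose in both, by 0.51 ± 0.07 (adjusted p = 1.1e-04) in shAPT1 and 0.97 ± 0.07 (adjusted p = 3.1e-07) in APT1wt. With the neighbour correction, values in APT1wt were 0.109 for CDC16 (adjusted p = 0.25), 0.135 for FBXO5 (adjusted p = 0.32), 0.292 for RAD21 (adjusted p = 0.00082) and 0.161 for PDS5B (adjusted p = 0.057), and the UBE2S call in APT1wt was lost, at -0.188 (adjusted p = 0.07). In shAPT1 it gave 0.0368 for CDC16 (adjusted p = 0.72) and 0.0865 for PDS5B (adjusted p = 0.28), both no longer called, and -0.257 for RAD21 (adjusted p = 0.0015), a call gained.

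Among 27 other kinetochore genes, 3 rose (11.1%) and 2 fell (7.41%) in shAPT1, where 12.8% and 11.6% of all genes did. In APT1wt 1 rose (3.70%) and 4 fell (14.8%), where 11.8% and 11.6% of all did. SKA3, of the complex that couples kinetochores to microtubule ends, rose in both, by 0.52 ± 0.11 (adjusted p = 0.0039) in shAPT1 and 1.05 ± 0.11 (adjusted p = 1.3e-05) in APT1wt. With the neighbour correction SKA3 stood at 0.0166 in shAPT1 (adjusted p = 0.92) and 0.157 in APT1wt (adjusted p = 0.26). SKA1, of the same complex, rose in shAPT1 by 0.56 ± 0.08 (adjusted p = 1.2e-04). Of 20 other G2 and mitotic regulators, 1 rose and 2 fell in shAPT1, and 6 rose and 2 fell in APT1wt, and in shAPT1 against APT1wt 2 rose and 9 fell. The 6 became 3 without control replicate 1, APT1wt replicate 2 or APT1wt replicate 3, and the 9 became 4 without shAPT1 replicate 2 and 5 without APT1wt replicate 2. Of 17 DREAM and MuvB regulators, 2 rose and 2 fell in shAPT1 (11.8% each), and 3 rose (17.6%) and 1 fell (5.88%) in APT1wt. MYBL2, or B-MYB, was 0.48 ± 0.10 (adjusted p = 0.0025) in APT1wt, and E2F5 was -1.01 ± 0.08 (adjusted p = 1.1e-06) in shAPT1. MKI67, the proliferation marker, passed the threshold in shAPT1 against APT1wt at -0.29 ± 0.07 (adjusted p = 0.0092), with -0.10 ± 0.07 (adjusted p = 0.34) in shAPT1 and 0.19 ± 0.07 (adjusted p = 0.074) in APT1wt against control.

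The 30 genes of G1/S and replication, the set most like the 54 in timing, were called in both directions. In shAPT1 2 rose (6.67%) and 8 fell (26.7%, median -0.08), where 9.26% and 13.0% of the 54 did (median -0.03). In APT1wt 6 rose (20%) and 7 fell (23.3%, median 0.01), where 14 (25.9%) and 2 (3.7%) of the 54 did (median 0.10). In shAPT1 against APT1wt 4 rose (13.3%) and 11 fell (36.7%, median -0.11), where 1.85% and 29.6% of the 54 did (median -0.14). The share that fell in shAPT1 against APT1wt was thus not smaller in this set than in the 54. The 6 became 3 without control replicate 3 or APT1wt replicate 2, and the 11 became 6 without APT1wt replicate 2 and 7 without APT1wt replicate 3. Whether the 2 sets differ was not tested. Of 6 tested CDK inhibitors, which restrain the cycle, 2 rose (33.3%) and 1 fell (16.7%) in shAPT1, where 12.8% and 11.6% of all genes did. In APT1wt 0 rose and 1 fell (16.7%), where 11.8% and 11.6% of all did. CDKN1A, or p21, was the 1 that fell in each, at -1.02 ± 0.13 (adjusted p = 7.0e-05) in shAPT1 and -0.59 ± 0.13 (adjusted p = 0.0044) in APT1wt. Across the 9 libraries, the genes outside the set whose log2 TPM lay closest to the mean of the 54 were ARHGAP11B (Pearson r = 0.968), RP1-198K11.5 (0.952) and BZW1 (0.940), of 13670 genes compared. These libraries share 3 groups of 3, ARHGAP11B has a near-identical copy that could share its reads, and the values describe likeness over 9 libraries only.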

How the data were processed

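The authors deposited Salmon output for each of 9 libraries holding TPM and estimated counts (expected counts) of 199324 transcripts, per the file headers, and a gene table of signal scaled between libraries in a way not given in the sources used here. FastQC, Salmon, DESeq2 and GRCh38.p10 are named, without versions, per the submitters' processing notes. Estimated counts were summed per gene and rounded. Genes passing filterByExpr (15233) were scaled by TMM and fitted with edgeR 4.0.16 (quasi-likelihood, all 9 libraries, no block; R 4.3.3), with Benjamini-Hochberg adjustment at 0.05. CPM was computed from TMM-scaled counts. The test was tried on simulated data. With 3 libraries a side, the smallest exact permutation p is 0.1. Gene positions were from GENCODE 29 on GRCh38 (15188 tested genes matched), promoters from RefSeq. Alternatives were RLE, library totals, DESeq2 1.42.0, limma-voom (limma 3.58.1), filters (none; 20 reads in 3 libraries), a length offset, the deposited table (log2 with a pseudocount of 1), protein-coding transcripts, only the 2 groups compared, a replicate block, corrections for neighbours and for length and GC, leaving out each library and, added after seeing the data, limma on log2 CPM without correction. The deposited table and both corrections were tested with limma. TPM per library was given for 11 members in any case and, per comparison and direction, up to 8 called members with the largest change (5 in shAPT1 against APT1wt). Up to 3 called genes per pathway list, and MKI67, could be named. Members, lists and the rule were chosen with earlier results of these data known. Figures used Python 3.11.15 and matplotlib 3.10.9.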

Additional observations from a re-analysis of the deposited data

Results flagged for a closer look

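PLK1, CCNB1 and BUB1 stood out because their 2 perturbed groups lay on opposite sides of control on scaled reads: every shAPT1 library was below every control library, and every APT1wt library above. Among all tested genes 1.68% had this pattern and 1.79% its mirror image. In shAPT1 against APT1wt the log2 fold change was -0.72 for PLK1, -0.42 for CCNB1 and -0.331 for BUB1. Each of these 3 differences kept its call in all 23 other settings. In shAPT1 against control, the calls of PLK1, CCNB1 and BUB1 were lost in 0, 12 and 13 of the 23. For APT1wt against control they were lost in 5, 1 and 13. In TPM the pattern held for PLK1, while shAPT1 and control overlapped for CCNB1 and BUB1.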

How the results depend on the processing

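Among the genes called against control, 5 of 12 in shAPT1 (CCNA2, PLK1, DLGAP5, NDC80 and UBE2C) and 4 of 16 in APT1wt (KIF20A, DLGAP5, CKAP2 and NDC80) were called in all 23 other settings, and 8 of 17 in shAPT1 against APT1wt (CCNB1, CDC25B, PLK1, BUB1, KIF20A, CKAP2, INCENP and UBE2C). No called gene of the 54 changed direction in these settings. The number lower in shAPT1 than control was 4 with library totals alone, without a filter, with the length offset, with the deposited table and with only the groups compared. Correcting for gene length and GC content made it 16, with a median log2 fold change of -0.0921. The number higher in APT1wt was 9 with library totals, the length offset and the deposited table. The number lower in APT1wt was 1 with the length offset and the deposited table and 0 with the neighbour correction. Higher in shAPT1 than APT1wt were 5 genes with library totals and 0 without a filter, with the length offset, the deposited table or the length and GC correction. Lower in shAPT1 than APT1wt were 10 with library totals, the length offset and the deposited table, and 36 with the length and GC correction. Medians of that comparison were -0.0775 with library totals and -0.211 with the length and GC correction. Limma on log2 CPM with no correction gave 5 higher and 7 lower in shAPT1 and 14 higher and 2 lower in APT1wt, both against control. In shAPT1 against APT1wt it gave 1 higher and 16 lower, so all its counts equalled those of the main fit. The cause of the shifts in other settings was not tested. Without the share of all genes called in each setting, the counts cannot show whether a shift is particular to the 54. Outside the 54, the neighbour correction turned the sign of SMC1A (0.13, adjusted p = 0.14) and CENPU (0.0365, adjusted p = 0.77) in APT1wt against control. In shAPT1 against APT1wt it turned that of STAG2 (-0.121, adjusted p = 0.13) and POLA1 (-0.0185, adjusted p = 0.86). None of these corrected values was called.

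With 1 library left out at a time, 3 to 6 genes were higher and 3 to 11 lower in shAPT1 than control, 7 to 20 higher and 1 to 2 lower in APT1wt than control, and 0 to 2 higher and 10 to 21 lower in shAPT1 than APT1wt. The lowest counts in APT1wt, 7 each, came without control replicate 1, APT1wt replicate 2 or APT1wt replicate 3. In shAPT1 the 11 came without shAPT1 replicate 1, and 3 without control replicate 2 or shAPT1 replicate 2.

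The replicate block gave 5 higher and 6 lower in shAPT1, 12 higher and 2 lower in APT1wt, and 1 higher and 15 lower in shAPT1 against APT1wt. Deviations of same-numbered libraries correlated between -0.05 and 0.10, and those of differently numbered libraries between -0.11 and 0.07. With 3 libraries a group, these values cannot say what the numbers share. Depth limits CDC25C most among the 54, with 228 to 348 estimated reads in a library, the fewest of these genes.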
